A study of Mus musculus with 6 samples.

Results

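The 9 genes described here encode parts of the machinery that gives an epithelial cell an apical and a basolateral side: Prkci and Prkcz, Pard3, Pard6b, Crb3, Mark2, Tjp1, Cgn and Ocln. They were taken by gene symbol from the count files and were chosen by measured values, the fold changes and p-values of an earlier fit of these same libraries. Thus what is given below on their difference between groups is a description, with no test. All 9 had a line among the 23260 lines of the files, and all 9 passed edgeR's filter on low counts, as did 13610 lines in all.

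The atypical protein kinases C (encoded by Prkci and Prkcz), bound to the adaptor PAR6 and the scaffold PAR3, form the PAR complex, which marks the apical cortex of epithelial cells when the small GTPase CDC42 binds PAR6. The Crumbs protein CRB3 sits in the apical membrane and anchors the same kinases there, while the kinase PAR-1b (encoded by Mark2) holds the basolateral side, to which it is confined because atypical PKC phosphorylates it off the apical cortex. At the border lies the tight junction, where occludin spans the membrane, ZO-1 (encoded by Tjp1) ties it to actin, and cingulin (encoded by Cgn) binds ZO-1 and the actomyosin ring. In the submandibular gland these proteins act where buds keep an outer basal layer and where ducts open a lumen.

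The samples were embryonic submandibular glands (eSMGs) of ICR mouse embryos at E14, cultured for 6 h ex vivo, as control (3 tubes) or with 50 µM AMD3100, an antagonist of the chemokine receptor CXCR4 (3 tubes). A tube pooled up to 10 whole glands, epithelium and mesenchyme together, and the sources used here do not give the litters. Sequencing was from the 3′ end of polyadenylated transcripts, and the deposited values are raw counts for each gene symbol. Expression is given as TMM-normalized CPM (counts scaled to library size by edgeR), and a fold change is that of AMD3100-treated over control eSMGs.

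Library totals ranged from 9051595 to 14393031 counts, so that 3 counts, taken as the floor, stood at 0.208 to 0.331 CPM. The ribosomal RNA precursor Rn45s took between 16.2% and 32.5% of the counts. Both replicate 3 libraries stood apart from the other 4 on the first principal component, which held 38.2% of the variance. Their skeletal muscle markers summed to 996 and 1249 CPM, against 72.0 to 130 CPM in the other libraries, and their mesenchymal markers to 1504 and 1365 CPM, against 2900 to 3002 CPM. The lower mesenchymal sums came mainly from Col1a1 (320 and 371 CPM, against 768 or more) and Col3a1 (406 and 415 CPM, against 1393 or more). In control replicate 3, Vim, Osr1, Pdgfra and Twist1 were lowest of the controls by less, and Twist2 and Prrx1 were highest. Thus the sum mainly follows these collagens. All 11 epithelial and all 8 mesenchymal markers passed the filter, as the label of whole glands has it. In edgeR's test 0 of the 13610 genes had an adjusted p-value under 0.05, against 228 with an unadjusted p-value under 0.05, and 5 genes had an adjusted p-value under 0.05 by DESeq2. The study's methods speak in general of independent experiments, but the labels do not say which litters or cultures these tubes came from, so that p-values measure the spread between these tubes.

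The promoters of the 4 members that the results and the motif search turn on are shown first. They are RefSeq sequences on GRCm38.p6, from 250 bases before to 50 bases after a transcript start, read 5′ to 3′ in the direction of the gene, and capitals mark matches on either strand to the GC box GGGCGG, the E-box CAGGTG or the grainyhead motif AACCNGTT. Those of Prkci (chr3:30995521-30995820, plus strand) and Cgn (chr3:94786433-94786732, minus strand) are given because these were the members with the largest differences. That of Tjp1 (chr7:65371195-65371494, minus strand) belongs to the member next in size, and that of Crb3 (chr17:57061951-57062250, plus strand) held the most E-boxes.
Prkci: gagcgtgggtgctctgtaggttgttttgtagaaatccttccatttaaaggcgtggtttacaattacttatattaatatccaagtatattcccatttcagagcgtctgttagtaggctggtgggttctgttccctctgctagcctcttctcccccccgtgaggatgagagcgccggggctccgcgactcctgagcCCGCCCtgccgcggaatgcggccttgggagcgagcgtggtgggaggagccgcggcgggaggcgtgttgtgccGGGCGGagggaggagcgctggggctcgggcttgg
Cgn: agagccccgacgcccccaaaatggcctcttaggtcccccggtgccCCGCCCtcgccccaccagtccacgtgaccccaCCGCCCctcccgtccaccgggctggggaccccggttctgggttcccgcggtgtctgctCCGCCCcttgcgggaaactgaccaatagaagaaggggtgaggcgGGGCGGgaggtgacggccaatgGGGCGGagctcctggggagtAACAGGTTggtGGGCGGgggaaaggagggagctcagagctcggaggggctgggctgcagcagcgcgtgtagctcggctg
Tjp1: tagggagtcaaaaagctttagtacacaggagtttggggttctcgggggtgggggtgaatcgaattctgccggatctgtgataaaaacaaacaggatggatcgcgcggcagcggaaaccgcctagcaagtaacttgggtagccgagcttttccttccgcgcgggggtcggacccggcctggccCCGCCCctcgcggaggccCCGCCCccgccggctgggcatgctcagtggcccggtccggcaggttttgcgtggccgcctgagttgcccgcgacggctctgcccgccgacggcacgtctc
Crb3: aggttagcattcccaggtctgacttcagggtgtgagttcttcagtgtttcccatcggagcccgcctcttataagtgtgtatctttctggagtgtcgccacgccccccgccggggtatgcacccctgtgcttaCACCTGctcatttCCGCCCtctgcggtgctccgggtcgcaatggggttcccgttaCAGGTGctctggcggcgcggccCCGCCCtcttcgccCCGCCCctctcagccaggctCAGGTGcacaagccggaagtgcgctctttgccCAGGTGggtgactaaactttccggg

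The 9 members had 15 promoter windows in the RefSeq table, some of which overlap, as do both of Crb3 and both of Ocln. A site in overlapping windows is thus counted more than once. The GC box was found in 13 of the 15, against 35.7% of 32851 windows of all genes. The other polarity and junction genes described below had it in 38 of 56 windows, so it is not particular to the members. The members' promoters above are rich in G and C, at 59.7% for Prkci, 70.3% for Cgn, 65.3% for Tjp1 and 62.3% for Crb3, against a median of 52.7% over all windows. The E-box, bound by repressors of the SNAIL and ZEB families among others, was found in 9 of the 15 windows, from 6 of the 9 members. It was found in 17 of the 56 windows of the other polarity and junction genes and in 20.2% of all windows. Crb3 had 4 E-boxes in its window, and Prkci, Cgn and Tjp1 had none. The grainyhead motif, bound by the epithelial factor GRHL2, was found in the Cgn window alone among the members, at position -29 from the start. It was found in 3 of those 56 windows and in 2.09% of all windows. A match of letters is not a binding site.

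In control eSMGs the members covered a wide range of levels. As a 3′ library gives about a read per transcript, counts do not grow with transcript length, and CPM was used to set genes beside each other without division by length. Pard3 was highest, at 125 ± 25.7 CPM (SD, n = 3), followed by Mark2 at 45.5 ± 18.5 CPM. Prkci at 20.6 ± 8.83, Tjp1 at 17.0 ± 8.25 and Cgn at 16.7 ± 3.74 CPM came next, and their ranges over the control libraries overlapped. Prkcz at 4.89 ± 3.34, Crb3 at 3.77 ± 0.432, Pard6b at 2.77 ± 2.54 and Ocln at 1.61 ± 1.35 CPM were lowest, and they too overlapped in order. Of the neighbours in this order, the ranges did not meet between Pard3 and Mark2, nor between Cgn and Prkcz.

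How far a value can be read differed between members, as the plot by library shows. Pard3 rested on 4473 counts in the control libraries and Mark2 on 1631, whereas Ocln rested on 57 and Pard6b on 107. For Prkci, counting error alone came to 6.50% of the mean count in control libraries, but the libraries varied by 42.8% of their mean. Ocln varied by 83.9% and Pard6b by 91.7%, against a counting error of 22.9% and 16.7%, so that even in the lowest members the spread exceeded counting error. Exceptions were Crb3 in control, with a spread of 11.5% against a counting error of 15.1%, and Prkcz in the AMD3100 libraries, with 5.55% against 11.3%.

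**Figure D1:**
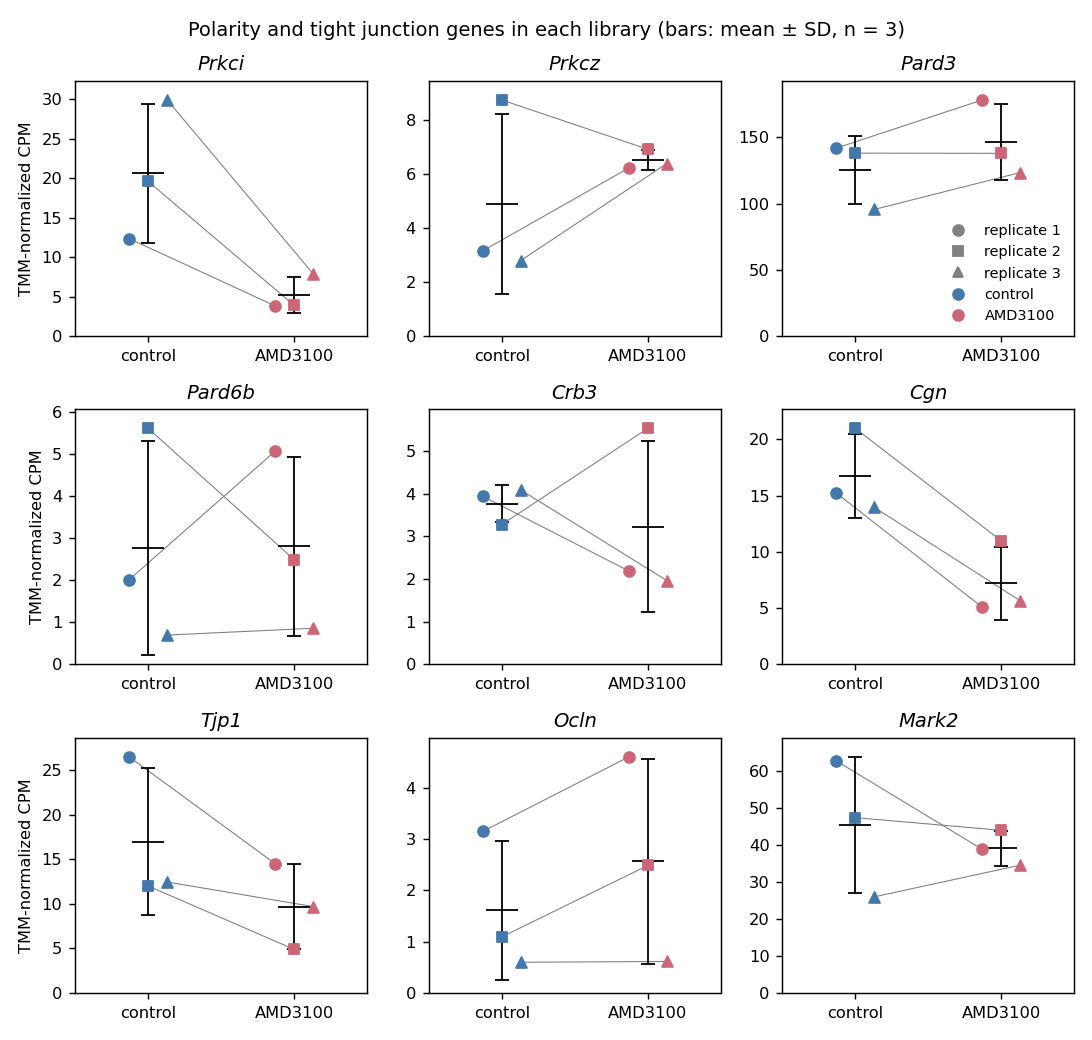
TMM-normalized CPM (vertical axis, from 0) of the 9 members in each of the 3 control and 3 AMD3100 libraries, with replicate numbers as symbols, grey lines joining libraries of the same number, and bars for the mean ± SD. Prkci and Cgn lie lower in all AMD3100 libraries than in any control library, and the groups overlap for the other 7 genes.

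Prkci, which encodes PKC iota, the atypical PKC on which polarity of most embryonic epithelia rests, lies on chromosome 3 from 30995742 to 31052740 (GRCm38.p6). It stood at 12.3, 19.6 and 29.9 CPM in control replicates 1, 2 and 3 (141, 269 and 300 counts) and at 3.80, 3.87 and 7.86 CPM in AMD3100 replicates 1, 2 and 3 (66, 42 and 64 counts). All AMD3100 libraries lay below all control libraries, so that AMD3100-treated eSMGs were also lower in all 3 pairs of the same number. On the log2 scale the difference was -2.0 (standard error 0.51), or 4.0-fold lower. The fit with the replicate number as a block gave -1.98 (standard error 0.36), and with each library left out the value ranged from -2.44 to -1.62. In bulk glands, fewer cells of a type and less RNA per cell cannot be told apart. The highest Prkci value, in control replicate 3, was found in the library with the lowest sum of epithelial markers, 497 CPM against 896 to 1070 CPM in the other 5. One marker, Cdh1, held 507 CPM of the 896 CPM in AMD3100 replicate 3, against 211 CPM in control replicate 3. The part of these markers in the Prkci values was not tested.

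Prkcz, which encodes the second atypical PKC, zeta, stood at 3.15, 8.74 and 2.79 CPM in the control libraries and at 6.22, 6.91 and 6.39 CPM in the AMD3100 libraries. The AMD3100 libraries were close to each other, and control replicate 2 lay above all of them. Its log2 fold change was 0.41 (standard error 0.63). Summed over both kinases, atypical PKC transcripts came to 25.5 ± 8.95 CPM in control and 11.7 ± 2.25 CPM in AMD3100-treated eSMGs (SD, n = 3 each). The share of Prkci in this sum was 79.7%, 69.1% and 91.5% in control replicates 1, 2 and 3, and 37.9%, 35.9% and 55.2% in AMD3100 replicates 1, 2 and 3. Thus Prkci was the larger part in all control libraries, and Prkcz in AMD3100 replicates 1 and 2. This share is drawn from the Prkci values by which that gene was chosen, so it is no separate result. The groups overlapped for Prkcz itself.

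Pard3, on chromosome 8 from 127063381 to 127612286, encodes the scaffold PAR3, which brings the complex to the junction. It stood at 142, 138 and 95.5 CPM in control and at 178, 138 and 123 CPM in AMD3100-treated eSMGs. The groups overlapped, and both replicate 3 libraries were the lowest of their group. A log2 fold change of 0.23 was found (standard error 0.30, and 0.14 with the replicate block). Its relative Pard3b stood at 37.3 ± 1.93 CPM in control and 38.6 ± 2.71 CPM in AMD3100-treated eSMGs, and Pard3 held 76.6% ± 4.0 of the sum of both in control and 78.8% ± 3.77 in AMD3100-treated eSMGs (SD, n = 3 each).

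Pard6b encodes the PAR6 adaptor that joins atypical PKC to CDC42. It had 23, 77 and 7 counts in control and 88, 27 and 7 counts in AMD3100 libraries, or 2.01, 5.61 and 0.698 CPM and 5.07, 2.49 and 0.860 CPM. Within each group the highest library was several-fold above the lowest, and the replicate 3 libraries were lowest in both. With a standard error of 1.07 on a log2 fold change of 0.02, a change of the size of that error in either direction was not detectable. Pard6b was the smallest of the PAR6 genes, with 3.54% ± 3.22 of their sum in control. Pard6a and Pard6g, which encode the same kind of adaptor, held 42.3% ± 26.7 and 54.1% ± 23.9 (SD, n = 3 each). Pard6a was the larger of both in the replicate 3 libraries (71.6% in control, 64.0% in AMD3100), and Pard6g in the other 4.

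Crb3, the short Crumbs gene of most epithelia, stood at 3.94, 3.28 and 4.09 CPM in control, the narrowest spread of the 9 members. It stood at 2.19, 5.53 and 1.96 CPM in AMD3100-treated eSMGs, from 38, 60 and 16 counts. AMD3100 replicate 2 lay above all control libraries and the other two below them. The 95% Poisson interval of AMD3100 replicate 2 (4.22 to 7.12 CPM) did not meet that of AMD3100 replicate 1 (1.55 to 3.004 CPM), although these intervals cover counting error only. Crb3 had a fold change of -0.22 on the log2 scale (standard error 0.77). Crb2, a longer Crumbs gene, held 69.8% ± 7.56 of Crumbs counts in control and 71.1% ± 6.54 in AMD3100-treated eSMGs (SD, n = 3 each), though in the annotation used for the check a gene on the opposite strand, Dennd1a, overlaps its 3′ end. Crb1 had 1 count in all libraries together.

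Mark2, on chromosome 19 from 7275396 to 7341860, encodes PAR-1b, the kinase of the basolateral side. It stood at 62.9, 47.5 and 26.03 CPM in control and at 38.9, 44.1 and 34.6 CPM in AMD3100-treated eSMGs. The AMD3100 libraries lay within the range of the control libraries. On the log2 scale the difference was -0.21 (standard error 0.36), or -0.14 with the replicate block (standard error 0.24). Mark2 made up 39.9% ± 9.69 of the counts of the MARK genes in control and 38.9% ± 10.5 in AMD3100-treated eSMGs (SD, n = 3 each), with Mark3 at 37.1% ± 5.09 in control. Mark3 was above Mark2 in control replicate 3 and in AMD3100 replicates 1 and 3, and Mark1 was above Mark2 in AMD3100 replicate 1.

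Cgn, on chromosome 3 from 94760069 to 94787725, encodes cingulin, the cytoplasmic protein of the tight junction that binds ZO-1 and regulators of RhoA. It stood at 15.2, 21.0 and 14.0 CPM in control replicates 1, 2 and 3 (174, 288 and 140 counts) and at 5.07, 10.97 and 5.65 CPM in AMD3100 replicates 1, 2 and 3 (88, 119 and 46 counts). The groups did not overlap, with the highest AMD3100 library, replicate 2, next to the lowest control library, replicate 3. It follows that AMD3100-treated eSMGs were also lower in all 3 pairs. Its log2 fold change was -1.21 (standard error 0.45), or 2.31-fold lower, and -1.27 in the blocked fit (standard error 0.37). Its relative Cgnl1, paracingulin, was at 70.0 ± 11.2 CPM in control and 71.5 ± 18.3 CPM in AMD3100-treated eSMGs. The share of Cgn in the sum of both was 18.2%, 26.02% and 14.5% in control and 6.43%, 17.4% and 5.99% in AMD3100 libraries, so that AMD3100 replicate 2 lay among the control values.

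Tjp1, on chromosome 7 from 65296165 to 65527850, encodes ZO-1. It stood at 26.5, 12.02 and 12.5 CPM in control and at 14.5, 4.89 and 9.70 CPM in AMD3100-treated eSMGs. AMD3100 replicate 1 lay above control replicates 2 and 3, so that the groups overlapped. AMD3100-treated eSMGs were lower in all 3 pairs of the same number, as was so for 14.6% of all genes tested. The values gave -0.81 on the log2 scale (standard error 0.52), and -0.84 in the blocked fit (standard error 0.36).

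Ocln encodes occludin, a membrane protein of the MARVEL family in tight junction strands. It had 36, 15 and 6 counts in control and 80, 27 and 5 counts in AMD3100 libraries, or 3.15, 1.09 and 0.598 CPM and 4.61, 2.49 and 0.614 CPM. The spread within a group was larger than the difference between groups, and both replicate 3 libraries were near the floor. Its log2 fold change was 0.68 (standard error 1.16). Its relatives Marveld2 (tricellulin) and Marveld3 made up 36.9% ± 14.1 and 53.0% ± 15.3 of the sum of these genes in control, and Ocln 10.1% ± 6.39 (SD, n = 3 each).

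**Figure D2:**
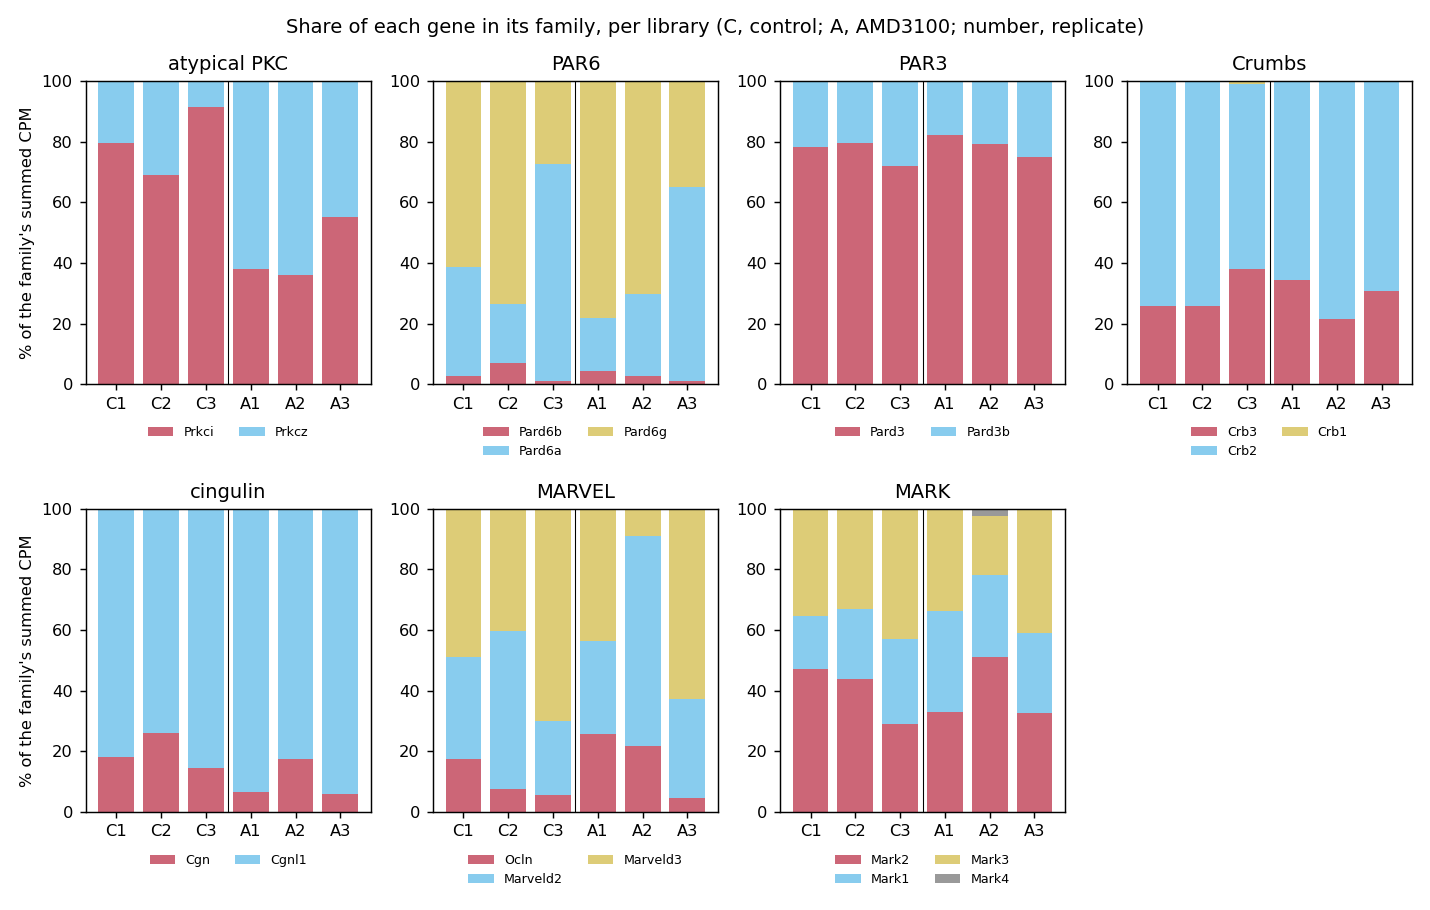
Share (%, vertical axis, 0 to 100) of each gene in the summed CPM of its family in each library, for the families of 8 members (C, control; A, AMD3100; the number is the replicate). The share of Prkci is 69.1% or more in every control library and 55.2% or less in every AMD3100 library, whereas Pard3 holds 72.1% to 82.3% in all 6. The Prkci share restates the Prkci values by which that gene was chosen.

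Side by side, 5 of the 9 members had a log2 fold change below 0, against 47.8% of all genes tested, and their median was -0.21, against 0.02 over all genes. Prkci and Cgn were the 2 members with a fold change over 1.5 and an unadjusted p-value under 0.05 in edgeR's test, thresholds that 1.68% of all genes tested passed, 1.28% of them lower and 0.397% higher. They were also the 2 members whose groups did not overlap, as was so for 7.44% of all genes (4.17% lower, 3.28% higher). With the replicate block, 3 members passed both thresholds, Tjp1 besides these 2, against 4.39% of all genes tested (2.90% lower and 1.49% higher), and 0 had an adjusted p-value under 0.05, as 0.0220% of all genes did in the blocked fit. As the members were chosen with these values known, nothing can be read from these counts. Prkci passed both thresholds in all 16 alternatives of processing and libraries. These alternatives reuse the libraries by which it was chosen, so passing them adds no separate support. Cgn did not pass without control replicate 2 (-1.01), without AMD3100 replicate 1 (-1.01) or without AMD3100 replicate 3 (-1.08).

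**Figure D3:**
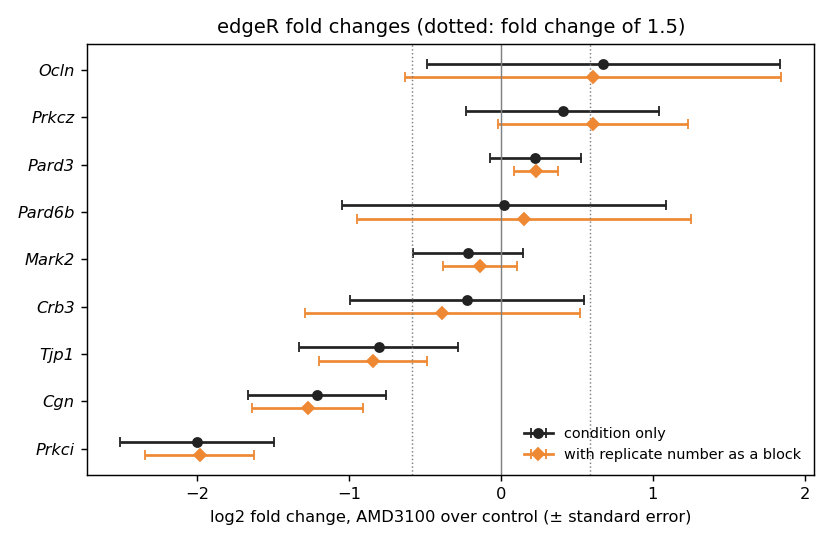
Log2 fold change (horizontal axis, ± standard error) of AMD3100-treated over control eSMGs for the 9 members, from edgeR with condition only (circles) and with the replicate number as a block (diamonds). Prkci at -2.0, Cgn at -1.21 and Tjp1 at -0.81 lie beyond the dotted line of a 1.5-fold decrease, and the bars of Ocln (standard error 1.16) and Pard6b (1.07) are the longest.

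Across the 6 libraries, members did not vary as a unit. The Pearson correlation of log2 CPM was 0.69 between Prkci and Cgn and 0.39 between Prkci and Tjp1, but -0.72 between Prkci and Pard3. Pard3 varied with Ocln (0.85) and with Pard6b (0.82). These 3 genes and Mark2, whose correlation with Pard3 was 0.60, were lowest in both groups in the replicate 3 libraries. These are descriptions over 6 libraries that share their treatment and their replicate numbers. Group means were not removed, so genes that differ between the groups correlate in part for that reason. As Prkci and Cgn were chosen by such values, their correlations, also with the genes named next, are no separate result. By the same measure, the genes most like Prkci among 10638 genes with a mean of at least 50 counts were Idh1 (a cytosolic isocitrate dehydrogenase, 0.99), Snrnp70 (a protein of the U1 splicing particle, 0.99), Sdf2, Ctbp1 (a corepressor) and Hnrnpf (a splicing factor), and 84 genes had a correlation over 0.9. Those most like Cgn were Acat1 (a mitochondrial thiolase, 0.98), Sdhaf4 (an assembly factor of succinate dehydrogenase), Kif1bp, Qtrtd1 and Kank1, and 61 genes had a correlation over 0.9. None of the 10 is a polarity or junction gene of the lists used here. Those lists hold at most 9 members and 51 other tested genes, few beside 10638. Thus nothing can be read from their absence.

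The other genes of these pathways were taken from lists by role, 55 in all, of which 51 passed the filter. Crb1, Lin7b, Mark4 and Igsf5 did not, the last with 0 counts in every library. Of the 51, 30 had a log2 fold change above 0 and 21 below, with a median of 0.07. In edgeR's test 1 was higher and 1 was lower at both thresholds, against 0.397% and 1.28% of all genes tested, and 0 had an adjusted p-value under 0.05 (2 had an unadjusted p-value under 0.05, and 0 had an adjusted one under 0.05 by DESeq2).

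Llgl1, the gene that was lower, encodes a Lethal giant larvae protein of the basolateral side and a substrate of atypical PKC. It stood at 79.9, 120 and 171 CPM in control and at 55.4, 58.2 and 69.4 CPM in AMD3100-treated eSMGs, and all AMD3100 libraries lay below all control libraries. On the log2 scale Llgl1 differed by -1.02 (standard error 0.34), for which edgeR gave an unadjusted p = 0.0149 and an adjusted p = 1.0. The blocked fit gave -0.96, with an adjusted p of 0.225 in edgeR's test. It did not pass the thresholds without control replicate 3 (-0.71), AMD3100 replicate 1 (-0.96) or AMD3100 replicate 2 (-0.98). The 3′ end of Llgl1 is overlapped on the opposite strand by Flii, and the strand setting of the counting is not given in the sources used here, so reads of both genes may be mixed. Its relative Llgl2 was at 3.45 ± 1.23 CPM in control and 5.43 ± 1.54 CPM in AMD3100-treated eSMGs (SD, n = 3 each), with overlapping groups.

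Prom1, the gene that was higher, encodes prominin-1, a protein of apical membrane protrusions. It stood at 12.7, 19.5 and 17.0 CPM in control and at 31.5, 47.0 and 22.3 CPM in AMD3100-treated eSMGs, and all AMD3100 libraries lay above all control libraries. Prom1 was higher by 1.04 on the log2 scale (standard error 0.38), for which edgeR gave an unadjusted p = 0.0229 and an adjusted p = 1.0. The blocked fit had an adjusted p of 0.487 for it in edgeR's test. It did not pass without control replicate 1 (0.87) or AMD3100 replicate 2 (0.72). With the replicate block, 4 of the 51 genes passed both thresholds, against 4.39% of all genes. Beside Llgl1 and Prom1 these were Tiam1, a Rac exchange factor that binds PAR3 (log2 fold change 0.66, edgeR's unadjusted p = 0.0123 and adjusted p = 0.611), and Tjp3, which encodes ZO-3 (-1.09, edgeR's unadjusted p = 0.0179 and adjusted p = 0.703), both named after their values were seen. Apba3 overlaps the 3′ end of Tjp3 on the opposite strand.

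By role, 0 of the 6 genes of the PAR complex and its GTPases passed the thresholds without the block, with a median log2 fold change of 0.03. Cdc42, the GTPase that binds PAR6 and the gene of highest level in this list, stood at 432 ± 174 CPM in control and 376 ± 146 CPM in AMD3100-treated eSMGs (SD, n = 3 each). Of simulated reads from its 3′ end, 36.4% could also be placed elsewhere, so its counts are uncertain. In the Crumbs complex, 0 of 7 tested passed (median 0.07), and Amot was highest, at 66.0 ± 23.2 CPM (-0.16, standard error 0.33). Mpp5, the PALS1 adaptor that binds CRB3, was at 46.2 ± 17.7 CPM in control and 55.5 ± 19.1 CPM in AMD3100-treated eSMGs. On the basolateral side, 1 of 9 passed (median 0.07), and Stk11, the LKB1 kinase that activates PAR-1, was at 88.3 ± 8.41 CPM (0.07, standard error 0.26), though Dos overlaps its 3′ end on the opposite strand.

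In the junction plaque, 0 of 12 passed (median -0.06), and Amotl1 was highest, at 276 ± 86.2 CPM (-0.09, standard error 0.33). Among the junction membrane proteins, 0 of 6 passed (median -0.11). Of these, Jam3 was highest in control at 52.3 ± 35.2 CPM (-0.48, standard error 0.54). Among apical membrane and lumen genes, 1 of 11 passed (Prom1), 9 had a log2 fold change above 0, and the median was 0.24. Anxa2, which encodes an annexin, was highest at 996 ± 561 CPM, with both replicate 3 libraries above the other 4 (0.24, standard error 0.54).

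**Figure D4:**
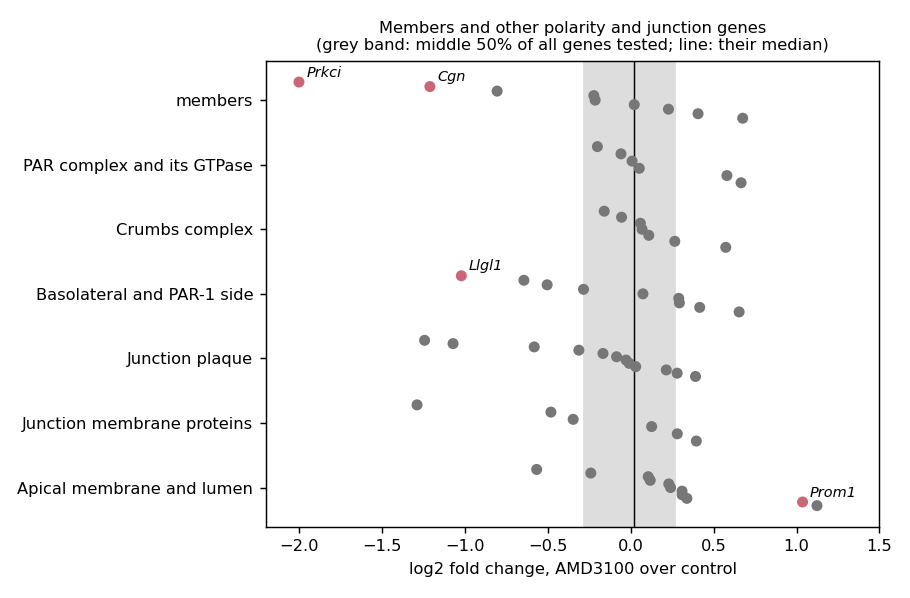
Log2 fold change (horizontal axis) of each tested gene among the 9 members and in 6 lists of other polarity and junction genes, with genes past both thresholds in red and named. The grey band holds the middle 50% of all 13610 genes tested (-0.28 to 0.27) and the line their median (0.02).

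Since whole glands mix epithelium and mesenchyme, the summed level of the 11 epithelial markers is set beside the members. In which cells the listed genes are expressed was not tested. It was 993, 995 and 497 CPM in control and 1070, 1049 and 896 CPM in AMD3100-treated eSMGs, a log2 difference of 0.34 (exact two-sided permutation test over 6 libraries, p = 0.5, where 0.1 is the smallest possible). The sum was higher with AMD3100 in all 3 pairs of the same number, which that test does not use. Cdh1 was its largest part in every library. In replicate 2, Cdh1 stood at 302 CPM in control and 394 CPM with AMD3100, a larger difference than that of the sum. The other markers together were thus lower with AMD3100 in that pair. Of all genes tested singly, 15.9% were higher in all 3 pairs. The difference was 0.02 without control replicate 3 and 0.09 with replicates 1 and 2 only. Of the 11 markers, 6 had a log2 fold change above 0 and 5 below, and 0 passed both thresholds. The 9 members summed to 271, 257 and 186 CPM in control and to 259, 219 and 191 CPM in AMD3100-treated eSMGs, with overlapping groups, a sum in which Pard3 holds the largest part. Both sums were lowest in their group in the replicate 3 libraries. With those libraries left out, so that 2 were compared with 2, the log2 fold change of Prkci was -2.06, that of Cgn -1.19 and that of Tjp1 -0.98.

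**Figure D5:**
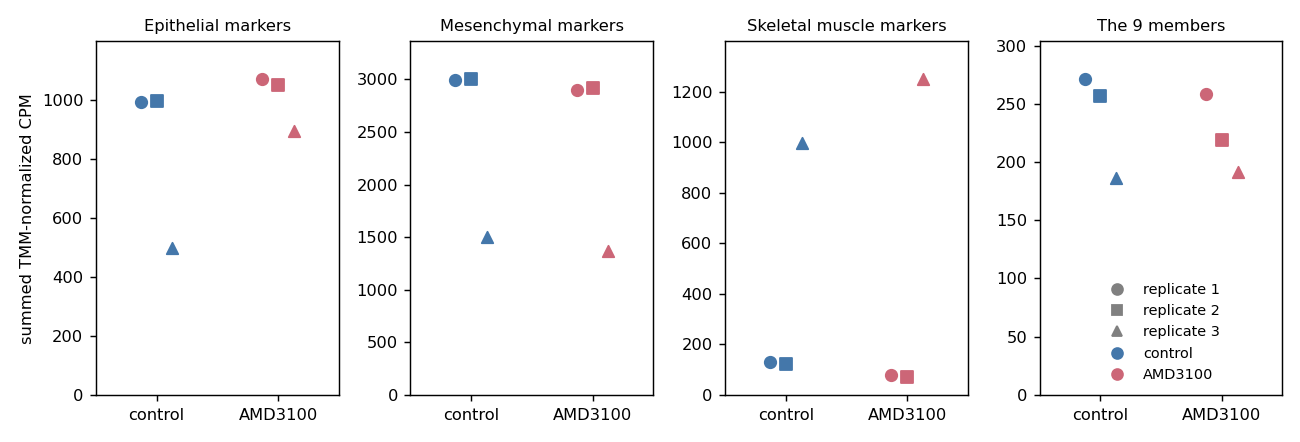
Summed TMM-normalized CPM (vertical axes, from 0) of epithelial, mesenchymal and skeletal muscle markers and of the 9 members in each library, by group, with replicate numbers as symbols. The replicate 3 libraries have the lowest mesenchymal and the highest muscle sums in both groups, and control replicate 3 has the lowest epithelial sum (497 CPM). The lower mesenchymal sums come mainly from Col1a1 and Col3a1. In AMD3100 replicate 3, Cdh1 alone holds 507 CPM of the epithelial sum.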

How the data were processed

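Expression was measured in eSMGs by 3′ RNA sequencing, in 3 control and 3 AMD3100 samples grouped by their labels. The authors deposited raw counts per gene symbol, from 50 bp single reads. The submitters' processing notes name Bowtie2, edgeR and mm10, and the counting tool, annotation and strand setting are not given in the sources used here. Of 23282 lines per library, the 22 that repeated a symbol with the same counts were left out.

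Counts were compared with edgeR 4.0.16 in R 4.3.3 (TMM, filterByExpr, glmQLFit, glmQLFTest, Benjamini-Hochberg adjustment over all genes tested), with condition as the only term and the study's thresholds of a fold change over 1.5 and p under 0.05. The study itself used quantile normalization and an equal-variance test. The replicate 3 libraries deviated together (correlation 0.584). For replicates 1 and 2 the correlations of the same number were 0.185 and 0.171. Control replicate 2 correlated better with AMD3100 replicate 1 (0.198), and control replicate 1 had 0.146 with AMD3100 replicate 2. Thus pairing of replicates 1 and 2 is not shown. The fit with the replicate number as a block is given beside the results it changed. The standard error is the size of the log2 fold change over the square root of its F. The fits were tested on simulated data.

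The members and lists were chosen with earlier results of these data known. Named were all members, listed genes past both thresholds, the highest gene of each role list, and for Prkci and Cgn the 5 genes most like them. Other genes, relatives or partners of a member, were named after their values were seen. Alternatives were DESeq2 1.42.0, upper quartile and RLE normalization, quantile normalization with limma-voom (limma 3.58.1), no filter on low counts, a minimum of 10 counts per library, the block, robust estimation, Rn45s left out, replicates 1 and 2 only, and each library left out.

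Positions and promoters are RefSeq's on GRCm38.p6, the assembly known as mm10. Reads of 50 bases, every 25 bases over the last 300 bases of GENCODE vM1 transcripts, were aligned to NCBIM37 with minimap2 2.31-r1302. This build is not that of the authors, and it gave only the names of overlapping genes and the placement of these reads. Of 11 reads per member, 1 of Cgn and 1 of Pard6b could also be placed elsewhere, and 0 of the other members did.

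Intervals and floors cover counting error only, since PCR copies are not independent molecules.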

Additional observations from a re-analysis of the deposited data

How the results depend on the processing

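Past both thresholds, 228 genes became 598 with the replicate block and 613 with replicates 1 and 2 only, and between 163 and 547 with each library left out (547 without control replicate 3, 451 without AMD3100 replicate 3). Genes with an adjusted p-value under 0.05 numbered 0 in edgeR's test, 5 with DESeq2, 3 with the replicate block and 0 without any library. Of the other polarity and junction genes, 2 became 4 with the block and 6 with replicates 1 and 2 only, and between 0 and 3 without each library (0 without AMD3100 replicate 2, and 1 without control replicate 1 or AMD3100 replicate 1). Members past both thresholds numbered between 1 and 2 without each library (1 without control replicate 2, AMD3100 replicate 1 or AMD3100 replicate 3) and 3 with the block. The cause was not tested.

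The sign of Prkci, Prkcz, Pard3, Cgn and Tjp1 held in all 16 alternatives, but not the size. Prkcz (0.41) stood at 1.13 without control replicate 2, 0.17 without control replicate 1 and 0.13 without control replicate 3. Pard3 (0.23) stood at 0.07 without control replicate 3 and 0.06 without AMD3100 replicate 1. Tjp1 (-0.81) stood at -0.34 without control replicate 1, -0.48 without AMD3100 replicate 2 and -1.22 without AMD3100 replicate 1. That of Pard6b turned negative without control replicate 1 (-0.17), control replicate 3 (-0.43) or AMD3100 replicate 1 (-0.73), and with replicates 1 and 2 only (-0.02), and it stood at 1.05 without control replicate 2. Crb3 turned positive without AMD3100 replicate 3 (0.02) and with replicates 1 and 2 only (0.09), and stood at -0.85 without AMD3100 replicate 2. Mark2 turned positive without control replicate 1 (0.09), and Ocln negative without AMD3100 replicate 1 (-0.05), against 1.59 without control replicate 1. With at least 10 counts in every library, 7 members could be tested and no value was had for Ocln and Pard6b. The normalization moved the log2 fold change of Prkci at most to -2.02.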

Other observations

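The glands held RNA of further cell types, summed here over short marker lists per library. Red blood cell markers came to 4838, 13797 and 5783 CPM in control and 4803, 7369 and 7510 CPM in AMD3100-treated eSMGs, with control replicate 2 above all others. Neuronal markers, of the parasympathetic ganglion that grows with the gland, ranged from 449 to 587 CPM in control and from 395 to 730 CPM in AMD3100-treated eSMGs. Macrophage markers ranged from 72.5 to 202 CPM in control and from 85.1 to 188 CPM in AMD3100-treated eSMGs, and both replicate 3 libraries were highest. Endothelial markers ranged from 20.6 to 29.0 CPM and from 13.1 to 42.5 CPM. In none of these lists, nor in those of mesenchyme and skeletal muscle, did a gene pass both thresholds in edgeR's test without the replicate block. With the block, Twist1 of the mesenchymal list (log2 fold change -0.97, edgeR's unadjusted p = 0.0193 and adjusted p = 0.703) and Myog of the muscle list (-1.16, edgeR's unadjusted p = 0.00442 and adjusted p = 0.468) passed both.

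Of the epithelial markers, Cdh1, the cadherin of epithelial junctions, stood at 337, 302 and 211 CPM in control and at 344, 394 and 507 CPM in AMD3100-treated eSMGs, so that the groups did not overlap (log2 fold change 0.55, edgeR's unadjusted p = 0.108 and adjusted p = 1.0). The same was so, with AMD3100 higher, for 3.28% of all genes tested. For every other epithelial marker the groups overlapped, and 5 of the 11 markers had a log2 fold change below 0. Krt5, Krt8 and Sox10, at 72.3 ± 46.6, 52.6 ± 31.8 and 75.1 ± 47.4 CPM in control (SD, n = 3 each), were lowest in both groups in the replicate 3 libraries. These 4 genes were named after their values were seen.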
